A study of Mus musculus with 4 samples.

Results

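The genes described here are 10 feedback targets of the ERK pathway, chosen by symbol from the 23420 genes counted in each library: the Sprouty genes Spry1, Spry2 and Spry4, the Spred genes Spred1 and Spred2, the phosphatase genes Dusp4 and Dusp6, and the ETS factor genes Etv1, Etv4 and Etv5. They were read in RNA sequencing counts from wild type E14 mouse embryonic stem cells, a line grown without feeder cells on gelatin with serum and leukemia inhibitory factor (LIF). The ATRA group is 2 libraries from cells given 1 µM all-trans retinoic acid, the ligand of the retinoic acid receptors, for 24 h. The control group is 2 libraries from the same cells at 0 h, and the labels do not say whether these received the dimethyl sulfoxide vehicle. ATRA and 24 h of culture therefore cannot be told apart, and since no label names separate cultures, the p-values here cover no more than library-to-library spread, possibly a technical one. All cells carried the wild type genome of a single line.

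Fibroblast growth factors (FGFs) and other ligands activate receptor tyrosine kinases, which signal through RAS, RAF and MEK to the ERK kinases. Active ERK induces genes whose products damp the same pathway, so their transcripts are widely used as a readout of it. Sprouty and Spred proteins act upstream, between receptor and RAF, the dual specificity phosphatases remove phosphate from ERK itself, and Etv1, Etv4 and Etv5, the PEA3 group of ETS factors, carry the signal to transcription. In mouse embryonic stem cells, Fgf4 made by the cells themselves drives ERK and prepares them to leave the naive state.

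The promoters of 7 of the 10 genes, with 9 start sites, were in the RefSeq table (GRCm38.p6, the assembly that mm10 names). Those below are shown because their genes ended on opposite sides of the comparison, Spry2 and Etv5 lower and Spred1 and Dusp6 higher after correction for base composition. Each line is the 250 bases before a RefSeq start, 5′ to 3′ on the gene's strand, with the ETS core GGAAGT in capitals where it occurs. They come from chr14:105896820-105897069 (minus strand), chr16:22438369-22438618 (minus strand, the downstream start of the gene's 2), chr2:117120821-117121070 (plus strand) and chr10:99262981-99263230 (plus strand).
Spry2: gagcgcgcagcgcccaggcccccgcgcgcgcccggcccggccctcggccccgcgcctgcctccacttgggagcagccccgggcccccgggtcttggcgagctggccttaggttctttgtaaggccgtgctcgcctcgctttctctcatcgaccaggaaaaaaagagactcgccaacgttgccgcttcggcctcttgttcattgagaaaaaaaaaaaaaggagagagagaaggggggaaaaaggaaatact
Etv5: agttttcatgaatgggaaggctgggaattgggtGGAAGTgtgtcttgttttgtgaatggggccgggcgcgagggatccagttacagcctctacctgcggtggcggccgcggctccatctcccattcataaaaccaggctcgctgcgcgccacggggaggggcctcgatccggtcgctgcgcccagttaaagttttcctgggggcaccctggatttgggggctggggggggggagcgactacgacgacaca
Spred1: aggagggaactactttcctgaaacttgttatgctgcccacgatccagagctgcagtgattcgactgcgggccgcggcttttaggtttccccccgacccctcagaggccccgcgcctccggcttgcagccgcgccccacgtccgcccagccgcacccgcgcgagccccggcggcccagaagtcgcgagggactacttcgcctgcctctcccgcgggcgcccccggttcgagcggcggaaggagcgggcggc
Dusp6: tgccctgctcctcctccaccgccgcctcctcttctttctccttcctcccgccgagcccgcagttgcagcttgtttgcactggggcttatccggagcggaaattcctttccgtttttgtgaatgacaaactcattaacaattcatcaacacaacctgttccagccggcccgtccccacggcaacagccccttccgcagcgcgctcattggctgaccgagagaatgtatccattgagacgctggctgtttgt
Both strands were searched for the ETS core GGAAGT, the AP-1 site TGANTCA, the cAMP response element TGACGTCA and the retinoic acid receptor half-site AGGTCA, none of which is contained in another. Across 32817 promoter windows of the same length, 19.7% held the ETS core, 6.75% the AP-1 site, 1.55% the cAMP response element and 14.0% the half-site. Among the 9 windows of these genes, the ETS core occurred once in Etv5, 217 bases before the downstream start, and once in Spred2, 33 bases before the start and inside an exon of another annotated transcript of that gene. The other motifs did not occur in any of the 9 windows, which says only that these letters are not there.

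Gene counts totalled 13337972 and 11086233 in the ATRA libraries and 31005634 and 21484812 in the controls, so the ATRA group had the lower depth. The upper limit behind a count of 0, taken as 3 counts, equals 0.225 and 0.271 CPM (counts scaled to library size) in the ATRA libraries and 0.0968 and 0.140 CPM in the controls, for counting error only; each of the 10 genes lay far above it. The libraries differed along the GC content of transcripts, the share of G and C bases. Across deciles of genes, from low to high GC content, ATRA replicate 2 over replicate 1 had median log2 values running from 0.85 to −1.31. Control replicate 2 over replicate 1 ran from −0.013 to −0.31, and the median log2 fold change of ATRA over control ran from 1.03 to −1.72. Fold changes are therefore given without and with a correction of each library for GC content, and the marker sums and single marker levels below are uncorrected. The correction removes any GC-related difference, technical or caused by the treatment, and whether it removes only bias was not tested. The 8 stem cell markers chosen as a check summed to 1649 and 1302 CPM with ATRA, against 3619 and 3621 CPM in the controls. Pou5f1 was at 307 and 106 CPM against 1279 and 1251 CPM. Nanog, Zfp42, Esrrb, Tdgf1 and Utf1 were also lower in both ATRA libraries. The ATRA values of Dppa5a (642 and 299 CPM) enclosed the controls (445 and 487 CPM), as did those of Sox2 (136 and 273 against 229 and 217 CPM). The 6 neural progenitor markers summed to 283 and 391 CPM with ATRA and 274 and 230 CPM in the controls (Nes the most abundant), 8 endoderm markers to 56.0 and 84.7 against 26.5 and 27.2 CPM (Dab2), 6 mesoderm markers to 23.0 and 29.7 against 186 and 159 CPM (T), 6 trophectoderm markers to 242 and 112 against 460 and 449 CPM (Krt18), and 7 fibroblast markers to 868 and 569 against 1610 and 1516 CPM (Fn1). Within the neural list, Nes overlapped between the groups (214 and 295 CPM with ATRA, 248 and 207 CPM in the controls), as did Sox3 and Zic1. Sox1 was higher with ATRA (23.8 and 30.7 against 1.60 and 1.56 CPM). So were Pax6 (39.9 and 62.0 against 19.3 and 18.0 CPM) and Pax3 (0.919 and 0.928 against 0.564 and 0.668 CPM). No marker on these lists was at 0 in all libraries, and the part of such shifts in the results below was not tested. In bulk RNA, fewer cells of a type and less RNA per cell cannot be told apart.

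After correction for GC content the feedback targets split into groups: Spry2, Spry4 and Etv5 fell to between 0.387 and 0.423 of the control level, Spred1, Spred2 and Dusp6 rose by between 1.47 and 2.34 times, and Spry1, Dusp4, Etv1 and Etv4 did not pass edgeR's test. Without the correction, 0 of the 10 passed edgeR's quasi-likelihood test (Benjamini-Hochberg adjusted p under 0.05, n = 2 against 2), where 1.13% of the 14256 genes tested did. The uncorrected adjusted p of the 10 lay between 0.0548 and 0.214, and 8 of the 10 had an unadjusted p under 0.05, against 41.7% of all genes. DESeq2, uncorrected, called 4 of the 10 lower (Spry1, Spry4, Etv4 and Etv5) and 2 higher (Spred1 and Dusp6), where it called 28.4% of all genes, 17.7% lower and 10.7% higher. With the correction, edgeR called 3 higher and 3 lower, against 16.3% of all genes, 8.56% higher and 7.70% lower. All 10 had ATRA and control libraries that did not overlap, which 81.4% of all genes had as well. After correction 7 of 10 did, against 70.3%. Their median log2 fold change was −0.64 uncorrected and 0.08 corrected, beside −0.02 and 0.01 over all genes. The 6 corrected calls were lost without either control library, where 0 of the 10 passed, beside 0.245% of all genes without control replicate 1 and 0.173% without control replicate 2. Without ATRA replicate 1 the corrected fit called 8 of the 10 and 44.6% of all genes, and without ATRA replicate 2 it called 6 and 33.7%. Uncorrected, 9 and 69.0% passed without ATRA replicate 1, 10 and 48.9% without ATRA replicate 2, 0 and 0.874% without control replicate 1, and 0 and 4.59% without control replicate 2.

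**Figure D1:**
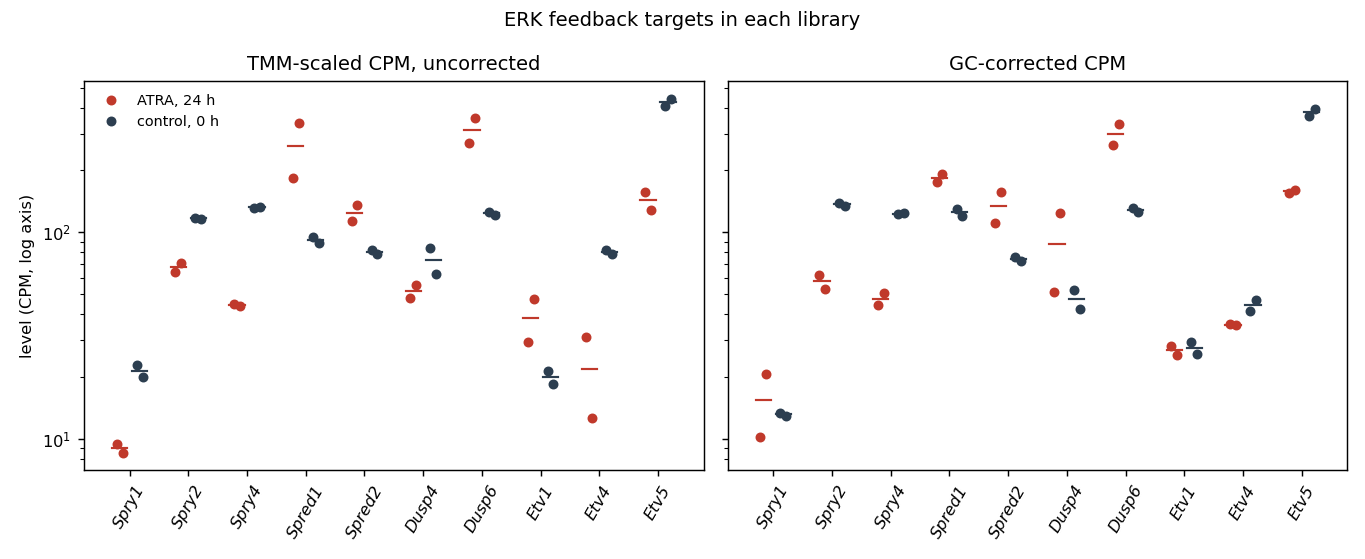
Level of each gene in each library in CPM on a log axis, before (left panel) and after (right panel) correction for GC content; red points are the 2 ATRA libraries, dark points the 2 control libraries, and lines their means. All 10 genes have separate groups on the left, while on the right those of Spry1, Dusp4 and Etv1 overlap.

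**Figure D2:**
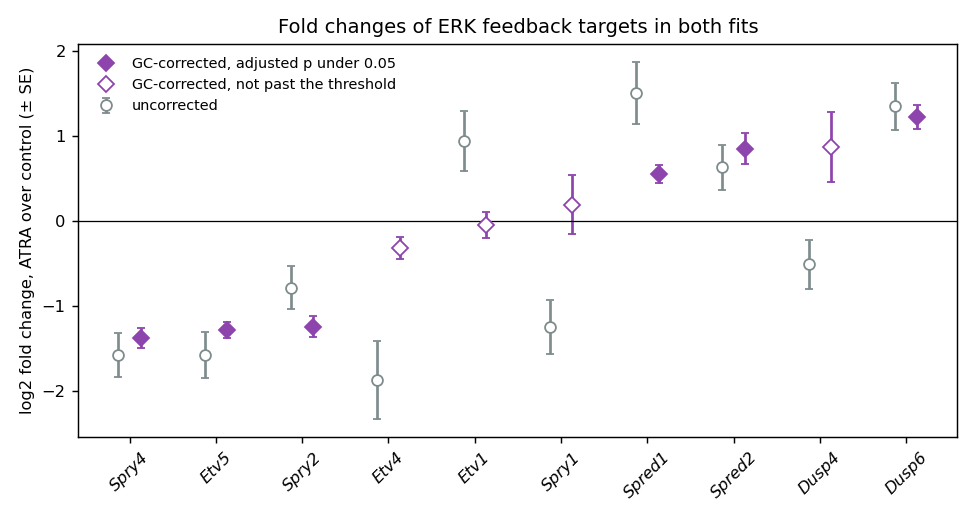
Log2 fold change of ATRA over control with its standard error for each gene, uncorrected (circles) and GC-corrected (diamonds, filled where the edgeR adjusted p is under 0.05). Spry4, Etv5 and Spry2 lie below 0 and Spred1, Spred2 and Dusp6 above 0 in both fits, while Spry1, Dusp4 and Etv1 change sides.

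Sprouty genes were lower with ATRA in the uncorrected values, and Spry4 and Spry2 fell after correction. Sprouty proteins are inducible inhibitors that block growth factor signals upstream of RAF. Spry4, on chromosome 18 from 38586247 to 38601415 (minus strand; this and the other gene positions are those of GENCODE M21, GRCm38), had 45.1 and 44.0 CPM in the ATRA libraries, against 131 and 133 CPM in the controls. Each pair of replicates lay close together and the groups were nearly 3-fold apart. Its log2 fold change was −1.57 ± 0.26 (SE), at edgeR adjusted p = 0.0548. Once corrected, the ATRA libraries were at 44.5 and 51.0 CPM, against 123 and 124 CPM in the controls, and Spry4 fell, with a log2 value of −1.37 ± 0.12 (edgeR adjusted p = 0.00832). That call was lost without either control library, at edgeR adjusted p of 0.0965 and 0.109.

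Spry2, on chromosome 14 from 105891947 to 105896819 (minus strand), whose promoter is printed above, had 64.5 and 71.4 CPM with ATRA, against 118 and 116 CPM in the controls. The groups were apart in all 4 libraries. Its uncorrected log2 fold change was −0.78 ± 0.26 (edgeR adjusted p = 0.0863). Its transcript has a GC content of 46.2%, in a decile of genes whose median log2 fold change was 0.60, and 3.95% of the genes of that decile had a lower value. After correction the ATRA libraries were at 62.5 and 53.4 CPM, against 139 and 134 CPM in the controls, and Spry2 fell, at a corrected log2 value of −1.24 ± 0.12 (edgeR adjusted p = 0.0104; 0.115 and 0.126 without a control library).

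Spry1, on chromosome 3 from 37639947 to 37644598 (plus strand), was the least abundant Sprouty gene, with counts of 133 and 83 in the ATRA libraries and 722 and 448 in the controls. These correspond to 9.40 and 8.56 CPM with ATRA, against 22.6 and 20.0 CPM in the controls. The log2 fold change was −1.24 ± 0.31 (edgeR adjusted p = 0.0689). At 56.7% GC, Spry1 lay near the middle of its decile of genes, where the median was −1.31. After correction its ATRA libraries stood apart from each other, at 10.2 and 20.7 CPM, and enclosed the control values of 13.3 and 12.9 CPM. The corrected log2 fold change was 0.19 ± 0.34 (edgeR adjusted p = 0.707), so its direction depends on the correction. It was 0.66 without ATRA replicate 1 (edgeR adjusted p = 0.0290) and −0.36 without ATRA replicate 2 (0.155). Exons of Gm42922, annotated on the opposite strand, cover 710 bases of Spry1 exons. Whether strand was used in counting is not stated, so how reads in that stretch were counted is not known.

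Per transcript length, the summed level of the Sprouty genes was 134 and 127 TPM (the counts per transcript length, scaled to a common total) in the ATRA libraries, against 256 and 253 TPM in the controls. After correction the sums were 133 and 131 TPM with ATRA and 286 and 274 TPM in the controls, so the groups stayed apart. Spry2 made up most of the sum everywhere, with 70.6% and 73.5% in the ATRA libraries and 61.2% and 61.2% in the controls. After correction its share was 69.7% and 58.4% with ATRA and 68.6% and 67.7% in the controls, and no longer higher in both ATRA libraries. Spry4 made up 21.7% and 19.9% with ATRA and 30.0% and 30.9% in the controls, and after correction 21.8% and 24.5% against 26.5% and 27.4%. With 2 libraries against 2, the smallest two-sided p that an exact permutation test allows is 0.333, so no such share or sum, and no ratio given below, was tested.

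Spred1 and Spred2 were higher with ATRA, and each rose after correction. Spred proteins are relatives of the Sproutys that bring the RAS-inactivating protein neurofibromin to the membrane. Spred1, on chromosome 2 from 117121374 to 117182279 (plus strand), had 183 and 340 CPM in the ATRA libraries, against 95.2 and 88.9 CPM in the controls. The ATRA replicates differed by 0.89 on the log2 scale, and the lower of them was still above either control. Its log2 fold change was 1.51 ± 0.37 (edgeR adjusted p = 0.0675). Spred1 has a GC content of 41.2%, in the lowest decile of genes, where the median log2 fold change was 1.03. After correction the ATRA replicates lay close, at 175 and 192 CPM, against 130 and 121 CPM in the controls. The rise was then smaller, at 0.55 ± 0.10 (edgeR adjusted p = 0.0312; 0.251 and 0.275 without a control library).

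Spred2, on chromosome 11 from 19924375 to 20024026 (plus strand), had 113 and 135 CPM with ATRA, against 82.0 and 78.2 CPM in the controls. Both ATRA values exceeded both controls. Its uncorrected log2 fold change was 0.63 ± 0.26 (edgeR adjusted p = 0.121). After correction its libraries were at 112 and 158 CPM with ATRA and 76.4 and 72.4 CPM in the controls, and it rose by 0.85 ± 0.18 (edgeR adjusted p = 0.0403; 0.246 and 0.249 without a control library). Leaving out ATRA replicate 1 gave 1.09 for the corrected value, and leaving out replicate 2 gave 0.60. Summed per length, the Spred genes were at 171 and 238 TPM in the ATRA libraries, against 94.9 and 90.2 TPM in the controls, and at 168 and 202 against 114 and 105 TPM after correction.

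Among the phosphatase genes, Dusp6 was higher with ATRA in both fits and rose after correction, and the direction of Dusp4 depended on the correction. Dusp6 encodes the cytoplasmic phosphatase that acts on ERK with high selectivity, while Dusp4 encodes a nuclear phosphatase of ERK and other MAP kinases. Dusp6, on chromosome 10 from 99263231 to 99267489 (plus strand), had 271 and 359 CPM in the ATRA libraries, against 125 and 122 CPM in the controls. The libraries separate by more than 2-fold. With 49.0% GC, its value moved little with the correction: the log2 fold change was 1.35 ± 0.28 (edgeR adjusted p = 0.0623) without it and 1.23 ± 0.14 (edgeR adjusted p = 0.0135) with it. The corrected libraries were at 265 and 337 CPM with ATRA and 132 and 125 CPM in the controls, and the call was lost without either control library (edgeR adjusted p of 0.137 and 0.139). In the decile of genes with like GC content, 94.5% had a lower uncorrected fold change.

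Dusp4, on chromosome 8 from 34807297 to 34819894 (plus strand), had 48.1 and 55.5 CPM with ATRA, against 84.3 and 62.8 CPM in the controls. The log2 fold change was −0.51 ± 0.29 (edgeR adjusted p = 0.214). At 56.0% GC, the corrected ATRA libraries were at 51.2 and 124 CPM, against 52.6 and 42.3 CPM in the controls. The ATRA replicates, close before correction, were then more than 2-fold apart, and the lower one lay among the controls. The corrected log2 fold change was 0.87 ± 0.41 (edgeR adjusted p = 0.181), or 1.39 without ATRA replicate 1 and 0.11 without ATRA replicate 2. With 1 ATRA library left, the spread comes from the 2 controls alone, so no p is given. Within each library, Dusp6 had 5.63 and 6.47 times the CPM of Dusp4 with ATRA and 1.49 and 1.94 times in the controls, and 5.18 and 2.72 against 2.50 and 2.96 times after correction, where the groups overlap.

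Of the PEA3 factors, Etv5 fell after correction, while Etv4 and Etv1 did not pass edgeR's test in either fit and had corrected values nearer 0 than the uncorrected ones. Etv4 and Etv5 are among the transcripts most directly tied to FGF signalling in embryos. Etv5, on chromosome 16 from 22381309 to 22439719 (minus strand), was the most abundant of the 10 genes in the controls. It had 157 and 129 CPM in the ATRA libraries, against 408 and 445 CPM in the controls. No library of either group came near the other group. Its log2 fold change was −1.58 ± 0.27 (edgeR adjusted p = 0.0578). Corrected, it was at 155 and 161 CPM with ATRA and 367 and 399 CPM in the controls, and fell, with a corrected log2 value of −1.28 ± 0.10 (edgeR adjusted p = 0.00555), the smallest corrected p of the 10. The call was lost without control replicate 1 or 2, narrowly, at edgeR adjusted p between 0.0663 and 0.0930.

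Etv4, on chromosome 11 from 101769742 to 101785371 (minus strand), had 31.2 and 12.6 CPM with ATRA, against 81.9 and 78.3 CPM in the controls. It had the lowest uncorrected log2 fold change of the 10, at −1.86 ± 0.46 (edgeR adjusted p = 0.0688), and ATRA replicates 1.31 apart on the log2 scale. Its transcript has the highest GC content of the 10, 58.7%, in a decile of genes whose median was −1.72. After correction the ATRA libraries met at 35.8 and 35.6 CPM, against 41.7 and 47.1 CPM in the controls, leaving −0.32 ± 0.13 on the log2 scale (edgeR adjusted p = 0.134). DESeq2 called Etv4 lower without the correction (adjusted p = 0.000628). Without ATRA replicate 1 the uncorrected value was −2.69, and without ATRA replicate 2 it was −1.35.

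Etv1, on chromosome 12 from 38779380 to 38870484 (plus strand), stood at the other end of base composition, with 39.8% GC. It had 29.4 and 47.4 CPM with ATRA, against 21.3 and 18.5 CPM in the controls, which gave 0.94 ± 0.35 on the log2 scale (edgeR adjusted p = 0.103). The median of genes with like GC content was 1.03. After correction the groups overlapped, with 28.3 and 25.5 CPM in the ATRA libraries and 29.5 and 25.8 CPM in the controls, and the value was −0.04 ± 0.15 (edgeR adjusted p = 0.857). Summed per length, the 3 factors were at 175 and 123 TPM with ATRA, against 389 and 411 TPM in the controls, and at 180 and 177 against 335 and 357 TPM after correction. Etv5 supplied 69.3% and 72.3% of the sum with ATRA and 73.3% and 75.9% in the controls, and 67.0% and 68.3% against 80.8% and 81.0% after correction.

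**Figure D3:**
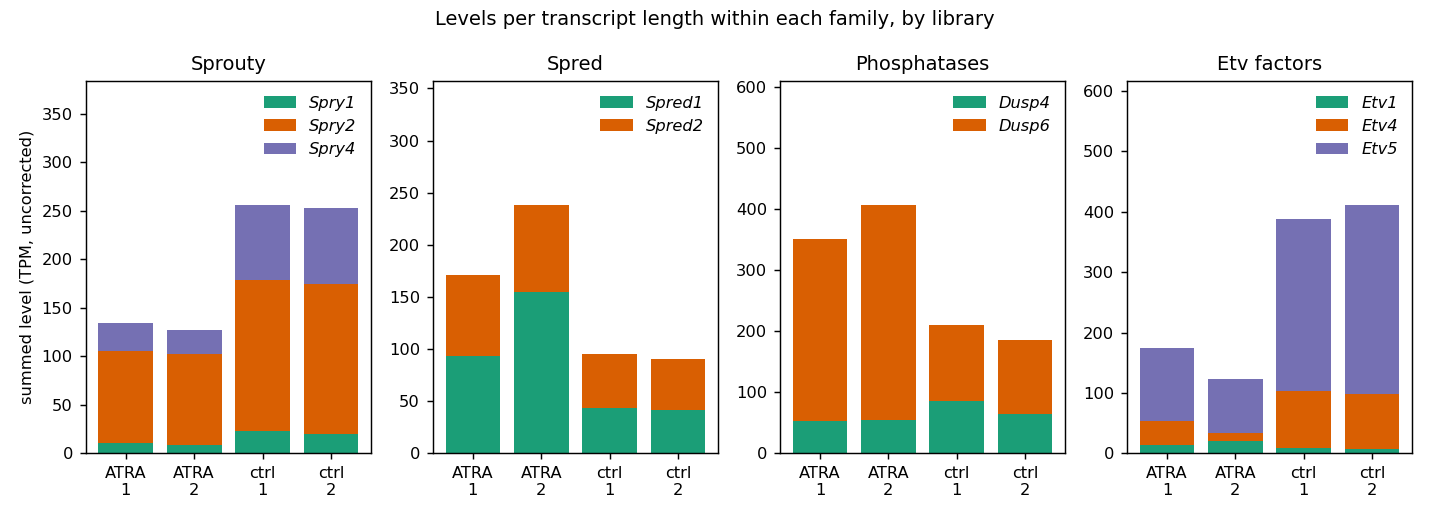
Summed level per transcript length (TPM, uncorrected) of the genes of each family in the 2 ATRA and 2 control libraries, with bars stacked by gene. The Sprouty and Etv sums are lower in the ATRA libraries (134 and 127 against 256 and 253 TPM for Sprouty) and the Spred and phosphatase sums higher.

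Because base composition moved with the groups, genes were set against each other within a library, in pairs chosen after their values were seen. Spry4 (51.2% GC), Spred2 (51.2%) and Etv5 (51.8%) have nearly equal GC content. The ratio of Spred2 to Spry4 CPM was 2.51 and 3.07 in the ATRA libraries, against 0.624 and 0.587 in the controls, and the smallest ratio with ATRA was 4.02 times the largest control ratio. Spred2 to Etv5 was 0.722 and 1.05 with ATRA, against 0.201 and 0.176 in the controls. The ratio of Etv5 to Spry4, by contrast, was 3.48 and 2.93 with ATRA and 3.11 and 3.34 in the controls, so the groups overlapped. Dusp6 (49.0%) and Spry2 (46.2%) are less alike in GC content, in deciles whose median log2 fold changes were 0.12 and 0.60. Their ratio was 4.20 and 5.03 with ATRA, against 1.06 and 1.05 in the controls, and 4.24 and 6.30 against 0.943 and 0.933 after correction. Such ratios need no scaling between libraries, and those of Spred2 to Spry4, Spred2 to Etv5 and Dusp6 to Spry2 were higher in both ATRA libraries than in either control. Each of these sets a gene higher with ATRA over a gene lower with it, so their separation follows from the choice of pairs. The share of all gene pairs with separate ratios was not computed.

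**Figure D4:**
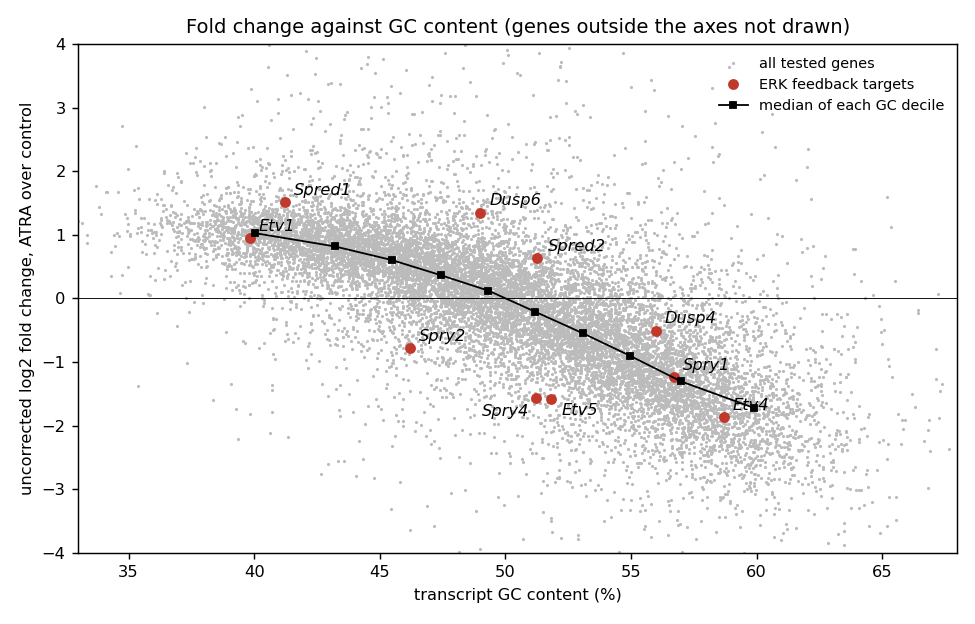
Uncorrected log2 fold change of ATRA over control against transcript GC content for all tested genes (grey), the medians of 10 equal groups by GC content (black) and the feedback targets (red, named). Etv1, Spry1 and Etv4 lie on the trend, while Spry4, Etv5 and Spry2 lie below it and Dusp6, Spred2, Dusp4 and Spred1 above it.

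By level per transcript length, the order of the 10 genes differed between the groups. With ATRA, Dusp6 led at 324 ± 38.3 TPM (mean ± SD, n = 2). Spred1 (124 ± 43.4), Etv5 (105 ± 22.7) and Spry2 (94.2 ± 0.915) followed without differing from each other beyond their spread. Spred2 (80.7 ± 3.68) came next by mean. Its mean ± SD range met those of Spred1 and Etv5, though both its libraries lay below theirs. Dusp4 (54.6 ± 1.13 TPM) was next. Etv4 (27.1 ± 18.1) had library values that enclosed those of Spry4 (27.2 ± 2.65) and overlapped those of Etv1 (16.7 ± 4.26). Spry1 had the lowest mean, at 9.42 ± 1.38 TPM. Both its values (10.4 and 8.44 TPM) lay below those of Etv4 (39.9 and 14.4 TPM). In the controls, Etv5 led at 298 ± 19.2 TPM, ahead of Spry2 (156 ± 1.29), Dusp6 (123 ± 2.14) and Etv4 (93.0 ± 2.59 TPM). Spry4 (77.4 ± 1.10) and Dusp4 (74.6 ± 15.1) did not differ beyond their spread, and Spred2 (50.0 ± 1.46), Spred1 (42.5 ± 1.88), Spry1 (21.3 ± 1.81) and Etv1 (8.42 ± 0.820 TPM) closed the order. These levels are uncorrected, and the order depended on the correction except at its head. Corrected, Dusp6 still led with ATRA, at 293 and 361 TPM, and Etv5 in the controls, at 271 and 289 TPM. Corrected Etv5 (121 and 121 TPM) lay above Spred1 (90.0 and 95.6 TPM) in the ATRA libraries, and corrected Etv4 (51.2 and 56.7 TPM) below Spry4 (75.8 and 75.0 TPM) in the controls.

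Spry4, which had the smallest uncorrected p of the 10, was used to find genes of like pattern. Over the 4 libraries, the smallest Euclidean distances of centred log2 CPM to it were those of the Polycomb gene Phc1 (0.103), the semaphorin and VEGF co-receptor gene Nrp2 (0.113) and the junctophilin gene Jph4 (0.119). Their uncorrected log2 fold changes were −1.50, −1.60 and −1.66. After correction they were −0.89, −1.42 and 0.27, so the likeness of Jph4 was to the uncorrected pattern.

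Of the other genes of the pathway, the FGF ligands Fgf8 and Fgf17, which mark the primitive streak and later the midbrain border, fell in both fits, and Fgf4 and Fgf5 fell after correction. Of 14 FGF ligand and receptor genes 12 were tested, and by edgeR 0 rose and 2 fell uncorrected, where 1.13% of all genes passed, and 2 rose and 4 fell after correction, where 16.3% passed. Uncorrected, 5 of the 12 had an unadjusted p under 0.05 and DESeq2 called 5, against 41.7% and 28.4% of all genes. The median log2 fold change was −0.59 uncorrected and 0.17 corrected. Fgf17 had 7.21 and 4.95 CPM with ATRA, against 50.6 and 38.7 CPM in the controls, which gave −2.86 on the log2 scale (edgeR adjusted p = 0.0399), or −1.27 (0.0384) after correction. Fgf8 had 0.778 and 0.206 CPM, against 7.27 and 8.15 CPM, at −3.84 (edgeR adjusted p = 0.0468), or −1.98 (0.0406) after correction; its value in ATRA replicate 2, from a count of 2, is under the limit that a count of 0 allows. The uncorrected value of Fgf8 was −5.19 without ATRA replicate 1, and the uncorrected call of Fgf17 was lost without control replicate 1 (edgeR adjusted p = 0.0731). Both uncorrected calls were lost with the older edgeR quasi-likelihood method (adjusted p of 0.0643 for Fgf8 and 0.0510 for Fgf17). Fgf4, the main autocrine ligand of stem cells, had 28.3 and 35.1 CPM with ATRA, against 82.3 and 76.1 CPM in the controls, and was at −1.32 (edgeR adjusted p = 0.0636) and at −1.18 (0.0239) after correction. Fgf5, a marker of the primed epiblast, was at −2.08 (0.0611) and −2.46 (0.0113). The receptor gene Fgfr2 had 46.7 and 54.1 CPM with ATRA, against 18.8 and 18.1 CPM, and rose after correction by 1.45 (edgeR adjusted p = 0.0113), beside 1.45 (0.0603) without it. Most genes in this and the next paragraphs that passed only after correction were chosen for passing there with a log2 change of at least 0.5. That choice was made after their values were seen. Exceptions were Rasa1 and Dusp9, the most abundant of their lists, and Fgfr1 and Shc1. The last 2, also named after their values were seen, changed by less than 0.5. All these corrected calls were lost without either control library, as were those of Fgf17 and Fgf8. The corrected call of Fgf8 was also lost without ATRA replicate 1 (edgeR adjusted p = 0.152). Fgfr1 had 152 and 67.2 CPM with ATRA, against 158 and 160 CPM in the controls, with a log2 value of −0.54 uncorrected (edgeR adjusted p = 0.341) and 0.48 (0.0474) corrected, so its direction depends on the correction.

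From the receptor to ERK and the kinases that are its substrates, no gene on the lists passed edgeR's test without the correction. Sos2, Braf, Rps6ka3 and Rasa1 were among those that rose with it. Uncorrected edgeR calls were 0 of 9 adaptor genes (3 with an unadjusted p under 0.05, and 1 called by DESeq2), 0 of 15 genes of the RAS to ERK cascade (7 and 5) and 0 of 9 genes of RAS-GTPase activating proteins and other brakes (3 and 2). After correction 2 adaptor genes rose and 0 fell, 2 cascade genes rose and 1 fell, and 1 brake gene rose and 0 fell. Over all genes, 1.13% passed edgeR's test uncorrected and 16.3% after correction. The uncorrected share of all genes with an unadjusted p under 0.05 was 41.7%, and DESeq2 called 28.4%. The median log2 fold changes were −0.16, −0.24 and 0.47 uncorrected for adaptors, cascade and brakes, and 0.16, 0.05 and 0.16 corrected. The most abundant adaptor gene was Gab1, with 466 and 518 CPM in the ATRA libraries, against 556 and 577 CPM in the controls. Its log2 value was −0.20 uncorrected (edgeR adjusted p = 0.548) and 0.18 (0.500) after correction. The most abundant of the brakes was the RAS-GTPase activating gene Rasa1, with 133 and 270 CPM with ATRA, against 70.8 and 68.5 CPM in the controls. Rasa1 was at 1.53 (edgeR adjusted p = 0.0696) and rose by 0.60 (0.0404) after correction. The adaptor gene Shc1 was at −0.16 uncorrected (edgeR adjusted p = 0.682), with overlapping groups, and at 0.43 (0.0470) corrected, so its direction depends on the correction. The others that rose were the RAS exchange factor gene Sos2 (0.95, edgeR adjusted p = 0.0181), the RAF kinase gene Braf (0.62, 0.0228) and Rps6ka3 (0.78, 0.0181), while Rps6ka1 fell (−0.83, 0.0305); the last 2 encode RSK kinases, substrates of ERK. The uncorrected log2 fold changes of Sos2, Braf, Rps6ka3 and Rps6ka1 were 1.63, 1.48, 1.74 and −2.13, none past the threshold; Rps6ka1 was at −3.15 when ATRA replicate 1 was left out and at −1.54 when replicate 2 was.

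The other members of these gene families followed no single direction. For comparison, edgeR called 1.13% of all genes uncorrected and 16.3% corrected, and DESeq2 called 28.4%. An unadjusted p under 0.05 was found for 41.7% of all genes uncorrected, and for 5450 of 14256 corrected. Of 11 further Sprouty, Spred and phosphatase genes 10 were tested, and edgeR called 0 uncorrected (3 with an unadjusted p under 0.05, and 0 by DESeq2); after correction 3 rose and 1 fell, with a median of −0.33 uncorrected and 0.49 corrected. Dusp9, an ERK phosphatase gene and the most abundant of them, had 136 and 50.1 CPM with ATRA, against 98.6 and 80.0 CPM in the controls. The ATRA replicates enclosed the controls, and the log2 value was 0.06 (edgeR adjusted p = 0.930), but 0.61 when ATRA replicate 2 was left out and −0.85 when replicate 1 was. After correction Dusp9 rose by 1.57 (edgeR adjusted p = 0.00547). Dusp8 (2.13, edgeR adjusted p = 0.0219) and Spred3 (1.41, 0.0451) also rose after correction and Dusp10 fell (−1.04, 0.0373), beside 0.45, 0.24 and −0.85 uncorrected. Spry3 had 0 counts in all libraries, so no fold is given. Of 16 further ETS genes 14 were tested, and 0 passed in either fit (edgeR; 4 had an unadjusted p under 0.05 uncorrected and 3 corrected, and DESeq2 called 2), with medians of 0.02 and −0.11. Gabpa, the most abundant, had 204 and 348 CPM with ATRA, against 173 and 168 CPM in the controls, with log2 fold changes of 0.69 uncorrected and −0.24 corrected (edgeR adjusted p of 0.160 and 0.117).

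Among 16 other genes known to respond to ERK, movement was again split. By edgeR, 0 rose and 1 fell uncorrected, where 1.13% of all genes passed, and 5 rose and 4 fell after correction, where 16.3% passed. Uncorrected, 13 of the 16 had an unadjusted p under 0.05 and DESeq2 called 10, against 41.7% and 28.4% of all genes. The list had a median log2 fold change of −0.90 uncorrected and −0.21 corrected. Egr1, an immediate early gene of the pathway, had 14.1 and 13.7 CPM with ATRA, against 70.8 and 72.2 CPM in the controls. It fell uncorrected, at −2.36 (edgeR adjusted p = 0.0343; 0.0802 without control replicate 1), and was at −0.79 (0.185) after correction. Leaving out ATRA replicate 1 gave a corrected value of −0.27, and leaving out replicate 2 gave −1.45. The genes that rose after correction included Il17rd, which encodes the FGF antagonist Sef, with 268 and 239 CPM with ATRA against 139 and 138 CPM in the controls (0.90, edgeR adjusted p = 0.0110). Flrt3, an FGF receptor partner (1.40, 0.0104), Lrig1, a feedback inhibitor of receptor kinases (1.91, 0.00922), Errfi1, an inhibitor of EGF receptors (0.69, 0.0207), and Phlda1 (1.87, 0.0470) were the others; Phlda1 was at 1.10 without ATRA replicate 2. Those that fell after correction were the cyclin gene Ccnd1 (−0.78, edgeR adjusted p = 0.0229), the ephrin receptor genes Epha2 (−0.72, 0.0268) and Epha4 (−1.40, 0.00833) and the early response gene Ier3 (−1.45, 0.0287). Uncorrected, Il17rd, Flrt3, Lrig1, Errfi1 and Phlda1 were at 0.88, 2.27, 0.89, 1.00 and 0.01, and Ccnd1, Epha2, Epha4 and Ier3 at −0.93, −1.98, −0.86 and −2.23. Without ATRA replicate 1, uncorrected Epha2 was at −2.90 and Ier3 at −2.99.

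**Figure D5:**
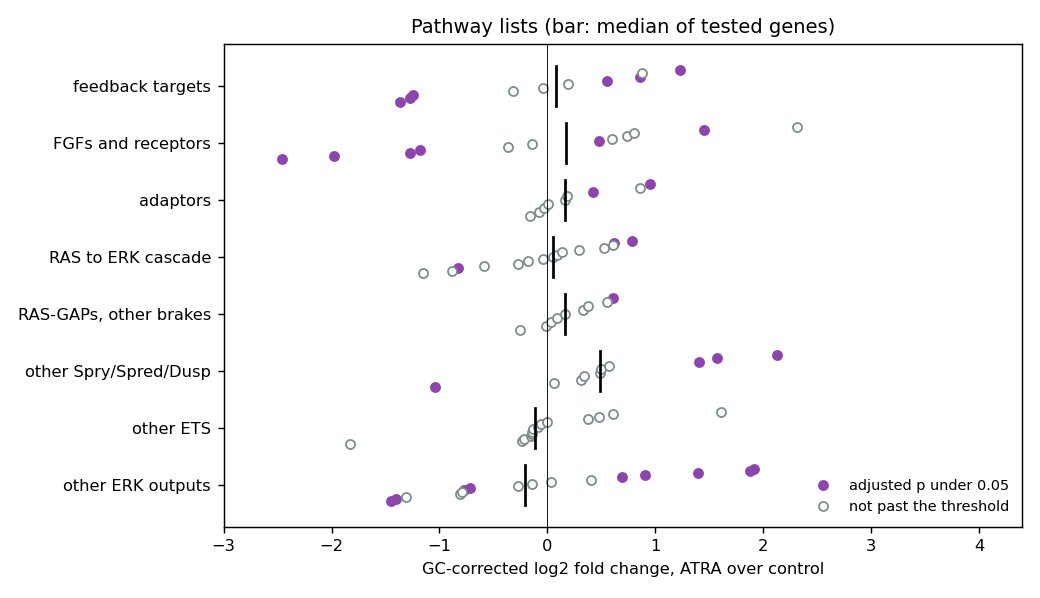
GC-corrected log2 fold change of ATRA over control for the tested genes of each list, with a bar at the list's median; filled points have an edgeR adjusted p under 0.05. The feedback targets and the other ERK outputs have called genes on both sides of 0. So do the FGF list, the RAS to ERK cascade and the other Sprouty, Spred and phosphatase genes. The further ETS genes have 0 called genes.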

How the data were processed

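Sequenced RNA came from 2 ATRA-treated and 2 control (0 h) libraries of E14 embryonic stem cells, grouped and numbered by sample title. The titles give a micromolar dose and a treatment label a millimolar one; the titles were followed. The authors deposited whole-number read counts per gene symbol, 1 table per library, without normalization. Per the submitters' processing notes, the tools include HTSeq 0.6.0, TopHat2 2.0.7, Cuffdiff 2.0.2 and Cufflinks 2.0.2, and the build is mm10; no role or order is given. For the annotation and strand setting, the sources used here state nothing. Summary lines entered neither library sizes nor tests: reads in no gene made up 64.7% and 66.2% of counted reads in the ATRA libraries and 63.4% and 63.9% in the controls, and ambiguous reads 0.158% to 0.254%. Replicates differed by more than sampling noise (chi-square per degree of freedom 76.9 for ATRA and 9.65 for the controls).

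The tests used edgeR 4.0.16 under R 4.3.3 (default expression filter by group, TMM, robust quasi-likelihood fit in the edgeR 4 form, Benjamini-Hochberg over all 14256 genes, threshold 0.05). SE is the log2 fold change over the square root of F. For the GC correction, each library's deviation of log2 CPM (prior count 2) from the gene mean was fitted to the GC content of the longest protein-coding GENCODE M21 transcript (natural spline, 5 degrees of freedom, robust regression by MASS 7.3.60.0.1, genes with mean log2 CPM above 1) and entered as an offset; 14145 tested genes (99.2%) had a GC value. TPM are CPM divided by transcript length and rescaled to a common total per library over the tested genes. Promoters are RefSeq's. The scripts were tested on simulated data, without a GC trend and with a linear trend in ATRA replicate 2 only. That setting does not match the GC trend between the groups in these libraries. The members and lists were chosen with earlier results of these data known. Genes named beside the 10 members were, per list, the 3 called with the smallest p or else the most abundant; the 3 nearest to the member with the smallest p; the most abundant of each marker list; and those chosen after their values were seen, as stated; 1 gene that the rule names is not reported here. Alternatives were DESeq2 1.42.0, its size factors, no filter, the replicate number as a block, each library left out and, chosen after seeing the data, the older edgeR quasi-likelihood method.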

Additional observations from a re-analysis of the deposited data

How the results depend on the processing

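The directions of Spry2, Spry4, Spred1, Spred2, Dusp6, Etv4 and Etv5 were the same in all 16 alternatives; their calls were not. Members called were 0 as reported, 0 with no filter and 0 with the older edgeR method, 2 with DESeq2 size factors (Spry4 and Etv5), 6 with DESeq2, 6 with the GC correction, 6 with the GC correction and the older method, and 0 to 10 with a library left out (corrected, 8 without ATRA replicate 1, 6 without ATRA replicate 2 and 0 without either control). Genes called over all genes were 161 as reported, 2319 with the GC correction, 603 with DESeq2 size factors, 4226 with DESeq2, 86 with the older edgeR method, 2382 with that method and the GC correction, and 125 to 10289 with a library left out, or, corrected, 6655, 5031, 35 and 25 without ATRA replicates 1 and 2 and control replicates 1 and 2; genes of the pathway lists called were 3, 25, 7, 25, 1, 25 and 1 to 64, or 43, 42, 0 and 0, in the same order. Of the calls, 64.0% were higher with ATRA as reported and 38.5% with DESeq2 size factors. With a library left out, a group of 1 takes its spread from the remaining pair; the median over all genes was −0.12 without ATRA replicate 1. The cause of these moves was not tested.

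Same-numbered libraries share only a number: their deviations correlated at 0.18 uncorrected and −0.03 corrected, over 2 pairs. With the replicate block, 4401 genes, 6 members (Spry1, Spry4, Spred1, Dusp6, Etv4 and Etv5) and 24 list genes passed; with the block and the GC correction, 2638, 6 and 27 did, Egr1 among the list genes (edgeR adjusted p = 0.0488).

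The signs of 3 members turned with the GC correction, as did those of the other named genes Gab1, Gabpa, Fgfr1, Shc1 and Jph4. In the corrected fit, the corrected fit with the block and the corrected fit by the older method, Spry1 was at 0.19, 0.14 and 0.16, Dusp4 at 0.87, 0.75 and 0.86, Etv1 at −0.043, −0.041 and −0.044, Gab1 at 0.18, 0.16 and 0.18, and Gabpa at −0.24, −0.24 and −0.24. Corrected and with a library left out, turned values were 0.66, 0.21 and 0.18 for Spry1, 1.39, 0.11, 1.03 and 0.72 for Dusp4, −0.12 and −0.14 for Etv1, 0.43, 0.14 and 0.19 for Gab1, and −0.23, −0.24, −0.22 and −0.27 for Gabpa. Uncorrected values near 0 also turned: Dusp9 to −0.10 with the block and ranging from −0.85 to 0.61 with a library left out, Phlda1 to −0.044 with no filter and ranging from −0.18 to 0.21 with a library left out, and Spred3 ranging from −0.013 to 0.52 with a library left out. The lowest count of the 10 genes in any library was 83.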
